A study of Mus musculus with 6 samples.

Results

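Lyz2, Stab1, Adgre1, Mrc1, Mpeg1, Ms4a7, F13a1, Cd163 and Chil3 are described here from a list of 10 genes of infiltrating and perivascular macrophages, out of 32371 mouse genes counted by RNA-Seq. The list was drawn up with the results of these libraries known, among them the low levels of Lyz2 and Stab1 after Ezh2-Y726D overexpression. The difference between the groups therefore chose the genes, and it is given for them as a description. No P value is given for them, and nothing is read from the number of them that pass a threshold. All 10 symbols were found in the count table, and counts, medians and sums over the list refer to all 10 or, where tested, to 9. The data were 6 libraries of retinal cells from adult C57BL/6J mice, 6 to 10 weeks old, of which 3 received AAV2-GFP and 3 AAV2-Ezh2-Y726D by intravitreal injection. Ezh2-Y726D is a form of the histone methyltransferase Ezh2 without catalytic activity. Both groups underwent optic nerve crush (ONC) 2 weeks later, and retinal ganglion cells (RGCs) were enriched 3 days after ONC by sorting live cells that stained for CD90.2, the product of Thy1. Antibodies to CD16 and CD32 were used to block the cells before staining. The promoter of the vectors and the number of retinas behind each library are not given in the sources used here. The P values below thus measure the spread between these libraries, which may be technical.

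Macrophages are phagocytes of the innate immune system. In the retina they include perivascular cells that lie along the vessels and cells that derive from blood monocytes and enter after injury, and they share many genes with microglia, the resident phagocytes of the neural tissue. Lysozyme (Lyz2), the pore-forming protein perforin-2 (Mpeg1) and the adhesion receptor F4/80 (Adgre1) are widely expressed in the lineage. The endocytic receptors stabilin-1 (Stab1), CD206 (Mrc1) and CD163 (Cd163) clear ligands from the surroundings, and Chil3 is best known from macrophages that respond to interleukin-4. In bulk libraries such as these, fewer macrophages in the retina, fewer macrophages carried through the CD90.2 sort and less macrophage RNA per cell cannot be told apart.

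The stretches just upstream of the transcription start are shown for the most abundant gene of the list, Lyz2, for Stab1, and for Mrc1 and the upstream start of F13a1. Stab1, Mrc1 and this start of F13a1 were chosen because they hold the motif described next, which Lyz2 and the stretches not shown lack. The myeloid transcription factor PU.1, the product of Spi1, binds purine-rich sites around GAGGAA, and capitals mark that motif on either strand (TTCCTC where it lies on the other strand). Each stretch holds the 250 bases before the start, 5′ to 3′ along the gene, from RefSeq on GRCm38.p6, the build named by the submitters. They lie at chr10:117282273-117282522 on the minus strand for Lyz2, chr14:31168642-31168891 on the minus strand for Stab1, chr2:14229164-14229413 on the plus strand for Mrc1 and chr13:37050245-37050494 on the minus strand for F13a1.
Lyz2: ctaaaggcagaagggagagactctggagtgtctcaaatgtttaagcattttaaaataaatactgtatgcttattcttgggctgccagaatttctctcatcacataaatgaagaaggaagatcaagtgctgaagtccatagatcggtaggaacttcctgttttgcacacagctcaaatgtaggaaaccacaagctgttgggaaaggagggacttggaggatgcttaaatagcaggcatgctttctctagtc
Stab1: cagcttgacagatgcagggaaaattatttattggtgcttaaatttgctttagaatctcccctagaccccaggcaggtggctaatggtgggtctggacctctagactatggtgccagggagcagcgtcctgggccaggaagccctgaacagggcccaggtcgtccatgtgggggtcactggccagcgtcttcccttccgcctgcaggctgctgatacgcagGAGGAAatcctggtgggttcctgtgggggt
Mrc1: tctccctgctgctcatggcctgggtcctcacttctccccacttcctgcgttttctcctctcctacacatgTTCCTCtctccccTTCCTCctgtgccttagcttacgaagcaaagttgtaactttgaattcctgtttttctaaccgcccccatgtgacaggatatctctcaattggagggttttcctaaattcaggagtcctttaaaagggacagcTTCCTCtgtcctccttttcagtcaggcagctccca
F13a1: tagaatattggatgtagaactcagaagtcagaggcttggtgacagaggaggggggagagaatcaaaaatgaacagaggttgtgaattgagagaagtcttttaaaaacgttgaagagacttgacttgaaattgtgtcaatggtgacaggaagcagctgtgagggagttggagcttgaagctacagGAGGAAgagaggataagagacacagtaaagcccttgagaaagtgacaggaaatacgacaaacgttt

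RefSeq stretches were found for 8 of the 10 genes, 10 stretches in all, since Ms4a7 and F13a1 have 2 starts each. GAGGAA occurred in 3 of the 10 stretches, those of Stab1, Mrc1 and one of F13a1, and in 23.3% of 32851 stretches of this length. In Stab1 the motif ended 25 bases before the start, and Mrc1 held 3 copies, the nearest ending 30 bases before it. The longer form GAGGAAGT, which contains GAGGAA, was found in none of the 10 stretches and in 2.44% of all. TTGCNNAA, a site of the C/EBP factors, was found in none of the 10 and in 9.56% of all, and TGANTCA, the AP-1 site, in 1 stretch of Ms4a7 and in 6.75% of all. The stretches of the macrophage genes held few CpG dinucleotides, the bases by which DNA is methylated, with 0 in Cd163, 1 in Lyz2, 5 in Stab1 and at most 6 in Ms4a7. The median over the 10 was 3, and over all stretches it was 6 (interquartile range 2 to 16).

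Total counts lay between 9333244 in GFP replicate 3 and 23782520 in Ezh2-Y726D replicate 3. GFP replicates 2 and 3 stood apart, since the rRNA gene CT010467.1 took 50.9% and 52.2% of their counts and 2.55% to 16.1% in the other 4. Without that gene they kept 5745352 and 4460732 counts, against at least 15280377 in the others. Levels are therefore given as CPM, a count relative to the library size scaled by edgeR's TMM method, with ± for the SD of 3 libraries. A single count was worth 0.0339 to 0.0490 CPM in the 4 deeper libraries and 0.129 and 0.166 CPM in GFP replicates 2 and 3. Ezh2 itself was higher after AAV2-Ezh2-Y726D by 1.46 on the log2 scale (standard error, SE, 0.061, adjusted P = 3.01e-16 from edgeR), in counts that cannot separate the vector from the mouse gene. The 10 RGC markers, among them Rbpms, Pou4f1 and Thy1, summed to 472 to 483 CPM in GFP and 450 to 486 CPM after Ezh2-Y726D. Of these, 1 was lower, 2 higher and 7 did not pass.

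The label of the list was only partly borne out by the counts. Cd163, the haptoglobin-haemoglobin receptor that defines perivascular macrophages, held 1, 0 and 0 counts in the GFP libraries and 0, 2 and 1 counts in the Ezh2-Y726D libraries. Both groups were at or under 3 counts per library, which is 0.102 to 0.498 CPM, so that Cd163 was not detectable at this depth and no fold change is given. The other 9 perivascular genes of the table ranged in GFP from a mean of 0.742 CPM (Cbr2) to 19.3 CPM (Siglec1), with Cd38 at 13.3 CPM. Pf4 held 12, 5 and 8 counts in GFP and 1, 0 and 0 after Ezh2-Y726D, and Cbr2 held 12, 5 and 7 in GFP and 3, 0 and 5 after Ezh2-Y726D. Lyve1, a hyaluronan receptor, was at 8.12 ± 0.506 CPM with GFP and 6.40 ± 0.247 CPM with Ezh2-Y726D. The 10 monocyte genes ranged in GFP from a mean of 0.537 CPM (S100a4) to 55.4 CPM (Itga4), with Ly6c2 at 28.5 ± 1.69 CPM, Ccr2 at 39.2 ± 0.410 CPM and Ifitm6 at 1.08 ± 0.424 CPM. Neutrophils are another source of lysozyme and chitinase-like proteins. Of 8 neutrophil genes in the table, S100a8, S100a9, Ly6g and Cxcr2 held at most 2 counts in any library and Ltf at most 4. Mmp8 held 16, 4 and 5 counts in GFP and 0, 1 and 4 after Ezh2-Y726D, with CPM that did not overlap between the groups, and Retnlg held 2, 3 and 3 counts in GFP and 2, 0 and 0 after Ezh2-Y726D. These genes were too low to be tested, and the part of neutrophils in the results was not tested. The neutrophil list summed to 32.8 to 40.7 CPM in GFP and 33.4 to 37.0 CPM after Ezh2-Y726D, nearly all of it Mmp9, which other cells express too. The genes are called macrophage genes from here on.

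All 9 macrophage genes that were detected were lower after Ezh2-Y726D overexpression than after GFP. The 8 described here were at between 22.8% (Ms4a7) and 45.4% (Mpeg1) of the GFP mean, from at least 25 counts in each library. Cd163 did not pass the filter on low counts. All 9 were lower at an adjusted P under 0.05, as were 13.6% of the 18138 genes tested, and by over 1.5-fold, as were 5.5%. In all 9 the highest Ezh2-Y726D library lay below the lowest GFP library, as in 18.9% of the genes tested. Because the genes were chosen on this contrast, nothing is read from these counts. The median log2 fold change of the 9 was -1.91, against 0.00 over all genes tested, where 5% of the genes lay below -0.69.

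**Figure D1:**
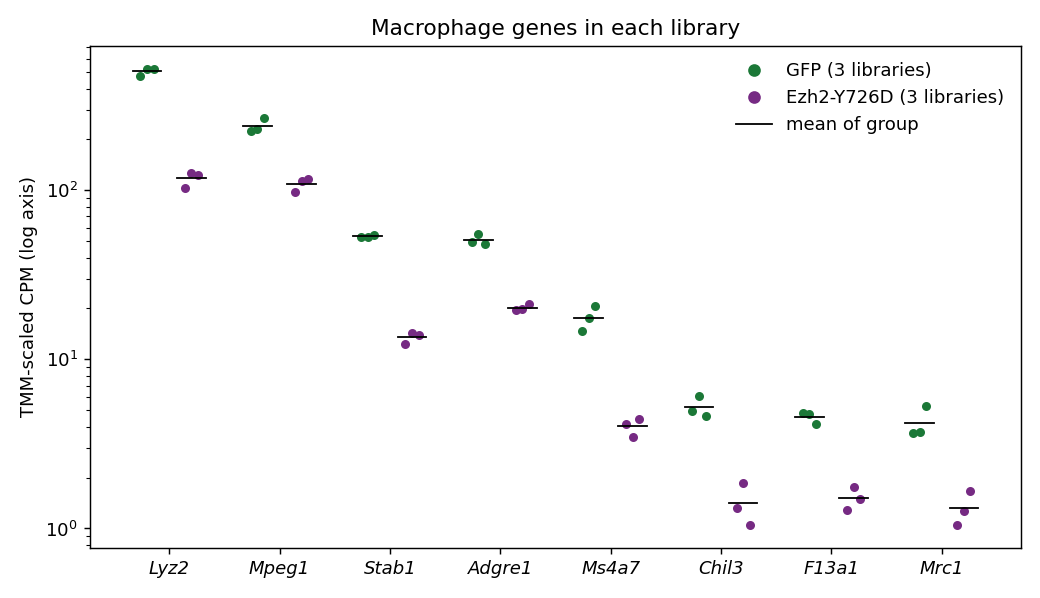
Level of 8 detected macrophage genes in each library, as TMM-scaled CPM on a log axis, with 3 GFP and 3 Ezh2-Y726D libraries as points and group means as lines. In every gene the 3 Ezh2-Y726D points lie below the 3 GFP points, and Ms4a7, for example, went from a mean of 17.7 to 4.02 CPM.

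Lyz2 (ENSMUSG00000069516, chromosome 10, 117277331 to 117282321), which encodes the lysozyme that cleaves bacterial cell walls, was the most abundant. Its level was 472, 524 and 523 CPM with GFP, and 104, 127 and 123 CPM with Ezh2-Y726D. The libraries of a group lay close together and the groups were far apart, with a log2 fold change of -2.10 (SE 0.056), the 20th lowest of all genes tested. Of the 1267 different stretches of 50 bases in its transcripts, 15.4% also occur in those of Lyz1, the neighbouring lysozyme gene of the gut. Lyz1 held 4 to 22 counts in the libraries, against 2595 to 13448 counts for Lyz2.

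Mpeg1 (ENSMUSG00000046805, chromosome 19, 12460779 to 12465283) encodes perforin-2, which forms pores in the membranes of engulfed bacteria. It was at 224, 229 and 268 CPM in GFP and at 97.7, 114 and 116 CPM after Ezh2-Y726D. Its log2 fold change of -1.13 (SE 0.057) was the smallest of the list. Adgre1 (ENSMUSG00000004730, chromosome 17, 57358691 to 57483527), the F4/80 antigen by which mouse macrophages are recognised, came next with -1.33 (SE 0.064). It was at 49.8, 55.5 and 48.3 CPM in GFP and at 19.5, 19.9 and 21.2 CPM after Ezh2-Y726D. Both genes are also expressed by microglia.

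Of the endocytic receptors, Stab1 (ENSMUSG00000042286, chromosome 14, 31139013 to 31168641) was the most evenly measured. Stabilin-1 takes up modified lipoproteins and matrix fragments. It was at 52.8, 53.1 and 54.1 CPM in GFP, a coefficient of variation of 1.21%, and at 12.4, 14.3 and 13.9 CPM after Ezh2-Y726D, a log2 fold change of -1.98 (SE 0.065). Its exons overlap those of Nt5dc2 over 1.09% of their bases. Mrc1 (ENSMUSG00000026712, chromosome 2, 14229392 to 14332057), the mannose receptor CD206, was much scarcer. It was at 3.65, 3.74 and 5.31 CPM in GFP and at 1.05, 1.27 and 1.66 CPM after Ezh2-Y726D, from 28, 26 and 49 counts. Its log2 fold change was -1.57 (SE 0.22), and the coefficient of variation after Ezh2-Y726D was 23.2%.

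Chil3 (ENSMUSG00000040809, chromosome 3, 106147554 to 106167564) encodes a chitinase-like protein (Ym1) made by monocytes and by macrophages under interleukin-4. It was at 4.95, 6.06 and 4.64 CPM in GFP and at 1.32, 1.86 and 1.05 CPM after Ezh2-Y726D, a log2 fold change of -1.91 (SE 0.20). Of its stretches of 50 bases, 26.9% also occur in transcripts of Chil4 or Gm6522, so that its count is uncertain. Chil4 was not among the genes of the table.

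Ms4a7 (ENSMUSG00000024672, chromosome 19, 11321039 to 11336146) encodes a membrane protein with 4 membrane-spanning segments that is known from macrophages of blood origin. It was at 14.7, 17.7 and 20.6 CPM in GFP and at 4.13, 3.48 and 4.44 CPM after Ezh2-Y726D, a log2 fold change of -2.03 (SE 0.12). F13a1 (ENSMUSG00000039109, chromosome 13, 36867178 to 37050244) encodes the A subunit of coagulation factor XIII, a transglutaminase of monocytes and perivascular macrophages. It was at 4.84, 4.77 and 4.15 CPM in GFP and at 1.28, 1.76 and 1.49 CPM after Ezh2-Y726D, a log2 fold change of -1.65 (SE 0.19). The groups of both genes were far apart relative to the spread within them.

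The 8 genes kept the same order of abundance in both groups. Levels between genes were compared as CPM per kilobase of exon. In GFP, Lyz2 was at 385 ± 22.6, Mpeg1 at 55.4 ± 5.48, Adgre1 at 15.8 ± 1.17 and Stab1 at 5.19 ± 0.0626, and none of these neighbours overlapped. Ms4a7 and Chil3 followed at 3.97 ± 0.655 and 3.20 ± 0.458, with libraries that overlapped. F13a1 at 0.681 ± 0.0568 and Mrc1 at 0.664 ± 0.146 overlapped as well. After Ezh2-Y726D the same neighbours overlapped, Ms4a7 at 0.902 ± 0.110 with Chil3 at 0.864 ± 0.254 and F13a1 at 0.224 ± 0.0362 with Mrc1 at 0.209 ± 0.0483. The genes also took other shares of their own sum. Lyz2 made up 55.9% to 58.1% of the summed CPM of the 10 genes in GFP and 42.9% to 44.7% after Ezh2-Y726D, and Mpeg1 25.4% to 28.6% and 40.0% to 41.0%.

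The level of each gene was next set against other myeloid genes of the same library, a ratio that does not move with the scaling. Against the geometric mean of 10 markers shared by microglia and macrophages (Csf1r, Aif1, Ptprc, Itgam, Tyrobp, Fcer1g, Cd68, Laptm5, Cybb and Ctss), all 9 genes were lower after Ezh2-Y726D with no overlap between groups, as were 0.81% of the 18138 genes tested. The ratio comes from the contrast on which the genes were chosen, and nothing is read from that count. The difference of the log2 ratio was -1.26 for Ms4a7, -1.23 for Lyz2, -1.11 for Stab1 and -1.05 for Chil3. It was smaller for Mrc1 (-0.80), F13a1 (-0.74), Adgre1 (-0.47) and Mpeg1 (-0.26). For Mpeg1 the log2 ratio was 1.88, 1.79 and 2.01 in GFP and 1.62, 1.64 and 1.63 after Ezh2-Y726D, so that the groups were separated by less than the GFP libraries spread. For Lyz2 it was 2.95, 2.98 and 2.97 in GFP and 1.70, 1.80 and 1.71 after Ezh2-Y726D. Against the geometric mean of 10 homeostatic microglia markers the differences ran from -1.95 for Ms4a7 to -0.95 for Mpeg1 among the 8 genes described, and the median over the 9 was -1.74.

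**Figure D2:**
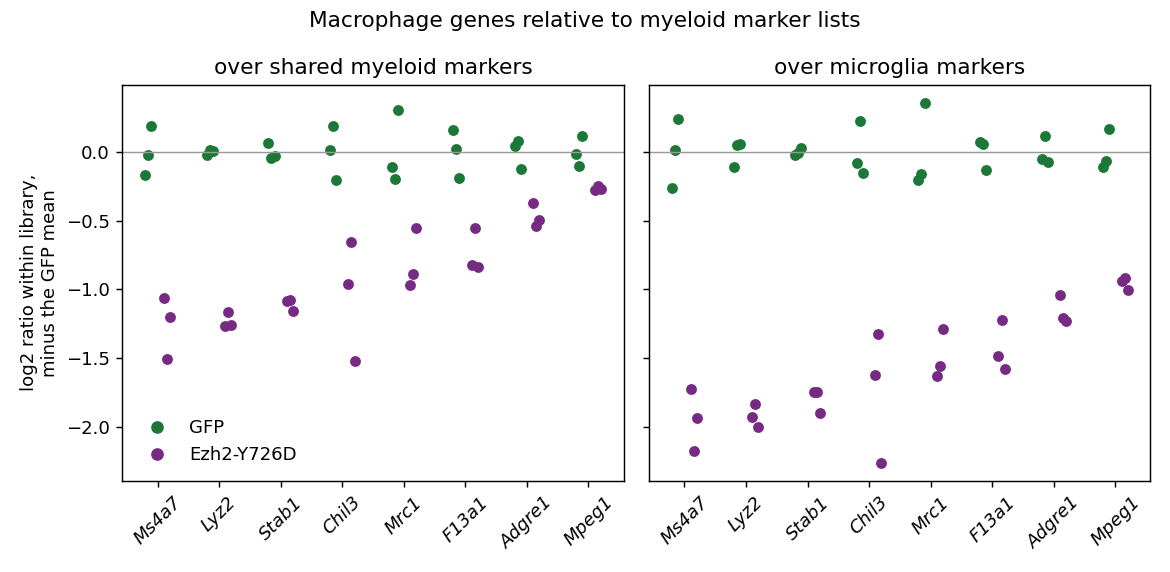
Log2 ratio of 8 macrophage genes to the geometric mean of the shared myeloid markers (left) and of the microglia markers (right) in each library, with the GFP mean of the gene set to 0. Ms4a7 lies lowest in both panels (-1.26 and -1.95 on average) and Mpeg1 highest (-0.26 and -0.95).

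The marker lists themselves were at the following levels. Their counts stand beside 13.6% of all genes tested that were lower and 13.9% that were higher in edgeR. The shared myeloid markers summed to 1051 to 1184 CPM in GFP and 574 to 684 CPM after Ezh2-Y726D. Of these 10, 9 were lower in edgeR and Itgam did not pass, and the median log2 fold change was -0.91. The microglia markers summed to 297 to 327 CPM in GFP and 244 to 288 CPM after Ezh2-Y726D, with a median of -0.15. Of these 10, 4 were lower, 2 higher (P2ry12 and Sall1) and 4 did not pass. The macrophage genes summed to 833 to 936 CPM in GFP and 242 to 285 CPM after Ezh2-Y726D, which is 30.3% of the GFP mean. The endothelial markers, which bear on Stab1 and Mrc1 because some vessels express both, summed to 968 to 1029 CPM in GFP and 907 to 972 CPM after Ezh2-Y726D. Most of that sum came from Kdr, at 763 CPM in GFP, and Flt1, at 200 CPM. Of the 8 endothelial markers, 3 were lower in edgeR (Kdr, Pecam1 and Esam), none higher and 5 did not pass (median log2 fold change -0.11). Esam had a log2 fold change of -0.79 (adjusted P = 4.30e-07 from edgeR), Pecam1 -0.33 and Kdr -0.13. The part of these lists in the results was not tested.

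**Figure D3:**
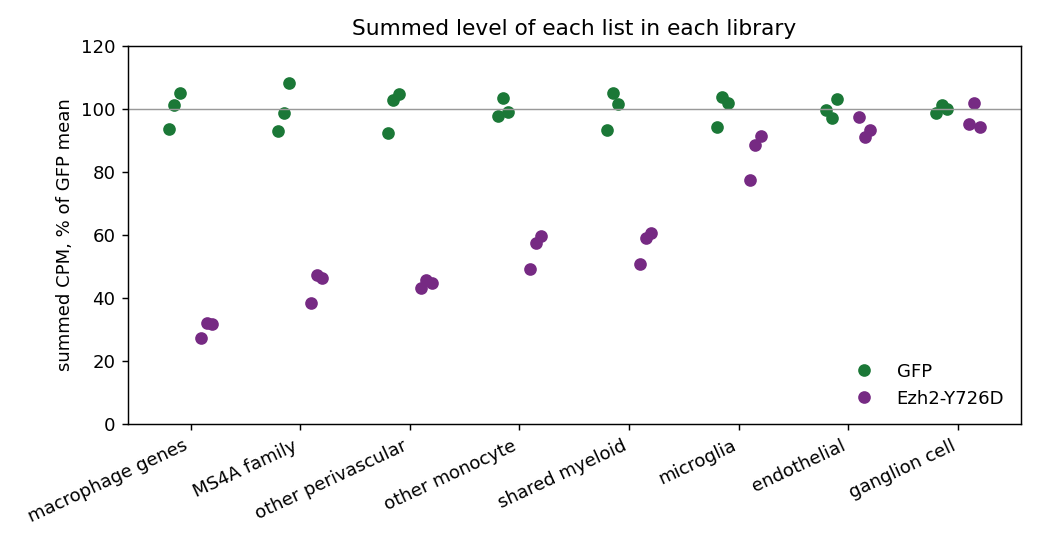
Summed CPM of each gene list in each library, as a percentage of the mean of the 3 GFP libraries. The macrophage genes of the Ezh2-Y726D libraries average 30.3% of GFP, the shared myeloid markers 56.9%, the microglia markers 85.8%, the endothelial markers 93.9% and the RGC markers 97.1%. Most of the endothelial sum came from Kdr and Flt1, so it says little about the other endothelial markers.

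Other genes of the pathways were followed in 9 lists chosen by function, with the macrophage genes left out. These lists were also drawn up with earlier results of the data known. Their counts and P values are therefore no independent test of the macrophage genes. Together the lists name 90 genes, of which 77 were tested. Of these, 45 were lower, 4 higher and 28 did not pass at an adjusted P under 0.05 from edgeR, against 13.6% of all genes lower and 13.9% higher. The median log2 fold change was -0.44, and 7 of the 77 lay below Mpeg1, the macrophage gene that differed least. With unscaled library totals the median of all genes moved to 0.49 and no gene of the 9 lists passed as lower. None of the falls and rises given below for the genes of these lists and for the relatives of the macrophage genes passed with that scaling, and among the genes followed Slc7a1, Slc7a2, Odc1, Ly75, Csf1r, Chil1, Mrc2 and Ms4a4a changed sign. Folr2, Colec12 and genes that are not named were not followed for their sign.

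Of the 9 monocyte genes tested, 6 fell, none rose and 3 did not pass (median -0.65). Ly6c2, the Ly6C surface antigen of inflammatory monocytes, went from 28.5 ± 1.69 to 9.48 ± 1.04 CPM, or by -1.58 on the log2 scale (SE 0.085, adjusted P = 3.78e-14 from edgeR). Of the 7 perivascular genes tested, 4 fell and 3 did not pass (median -0.83). The sialic acid receptor Siglec1 went from 19.3 ± 3.17 to 4.75 ± 0.468 CPM, or by -1.93 on the log2 scale (SE 0.12, adjusted P = 5.44e-13 from edgeR), and the ectoenzyme Cd38 fell by 1.45. The other genes that passed were Folr2 and Colec12 (adjusted P = 0.0385 and 0.00763 from edgeR), and in both the groups overlapped. Folr2 held 33, 3 and 10 counts in GFP and 14, 13 and 14 after Ezh2-Y726D. The count of this list was 2 with DESeq2 and 2 to 6 with 1 library left out, with 2 both without GFP replicate 1 and without Ezh2-Y726D replicate 1.

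The MS4A genes form a cluster on chromosome 19 in which Ms4a7 lies. Of the 7 other members tested, 5 fell and 2 did not pass (median -1.03). Ms4a6d fell by 1.56 (SE 0.10, adjusted P = 1.93e-12 from edgeR), Ms4a4c by 1.37 and Ms4a6c by 1.33. Ms4a4a was at 0.632 ± 0.204 CPM with GFP and 0.424 ± 0.0742 CPM with Ezh2-Y726D and did not pass.

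Among the other scavenger and endocytic receptors, 6 of 12 genes tested fell, 1 rose and 5 did not pass (median -0.18). Msr1, the class A scavenger receptor of macrophages, had by far the largest fall, from 7.80 ± 0.476 to 2.28 ± 0.204 CPM, or by -1.80 on the log2 scale (SE 0.15, adjusted P = 1.21e-10 from edgeR). Cd36, which takes up oxidised lipids, fell by 0.53 and Ly75 by 0.44, and Cd36 did not pass without GFP replicate 1 (adjusted P = 0.197) or with DESeq2 (adjusted P = 0.0758). Scara3 rose by 0.14 (adjusted P = 0.0185 from edgeR), and did not pass without GFP replicate 2 (adjusted P = 0.0897) or without Ezh2-Y726D replicate 1 (adjusted P = 0.136). Stab2, the relative of Stab1, was at 2.59 ± 0.470 and 2.50 ± 0.354 CPM, and Mrc2, the relative of Mrc1, at 2.34 ± 0.694 and 2.14 ± 0.196 CPM, and neither passed. The count of falls was 3 with DESeq2 and 3 without GFP replicate 1.

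CD163 delivers haemoglobin to the pathway that breaks down haem and stores its iron. Of 9 genes of this pathway, 5 fell and 4 did not pass (median -0.35). Slc11a1, an iron and manganese transporter of phagosomes, fell by 0.96 (adjusted P = 4.16e-09 from edgeR). The haem oxygenase gene Hmox1 fell by 0.67 and the ferritin light chain gene Ftl1 by 0.59.

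Chil3 is a target of interleukin-4 signalling through Stat6. Of the 9 other genes of that pathway tested, 6 fell, none rose and 3 did not pass, and the falls were small (median -0.51). Stat6 went from 36.2 ± 2.91 to 24.5 ± 0.374 CPM, or by -0.58 on the log2 scale (SE 0.063, adjusted P = 2.56e-08 from edgeR). The transglutaminase gene Tgm2, whose exons overlap other genes over 21.8% of their bases, fell by 0.56 and the receptor gene Il13ra1 by 0.55. Retnla and Ccl24, classical targets, held at most 2 counts in any library.

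Genes of arginine metabolism changed little. Of 9 tested, 4 fell and 5 did not pass (median -0.19). The arginine transporter genes Slc7a1 and Slc7a2 fell by 0.28 and 0.21, and Odc1, which makes putrescine from ornithine, by 0.18 (adjusted P = 0.00413 from edgeR). Slc7a2 did not pass without GFP replicate 2 (adjusted P = 0.0633) or without Ezh2-Y726D replicate 2 (adjusted P = 0.122).

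Of the 11 transcription factors of the myeloid lineage tested, 8 fell, 2 rose and 1 did not pass (median -0.59). Spi1, which encodes PU.1, was at 16.3 to 19.9 CPM with GFP and fell by 0.85 on the log2 scale (SE 0.091, adjusted P = 2.01e-08 from edgeR). Nr1h3, the oxysterol receptor LXR alpha, fell by 0.91 and Irf8 by 0.68. Klf4 and Cebpd rose by 0.60 and 0.24, and both are also expressed outside the myeloid lineage. Of the 6 colony-stimulating factors and receptors, 3 fell, 1 rose and 2 did not pass. Csf2rb and Csf3r fell by 0.75 and 0.68. Csf1r, the receptor on which macrophages and microglia depend, fell by less, with a log2 fold change of -0.39 (SE 0.051, adjusted P = 8.25e-07 from edgeR), and its ligand Il34 rose by 0.36 (adjusted P = 0.0393 from edgeR). The call of Il34 was lost with DESeq2 (adjusted P = 0.156), with library totals without CT010467.1 (adjusted P = 0.0552), with GFP replicate 1 as the only GFP library (adjusted P = 0.194) and without any 1 of 5 libraries (adjusted P = 0.057 to 0.139), the exception being Ezh2-Y726D replicate 2. That of Klf4 was lost without GFP replicate 1 (adjusted P = 0.156) and without Ezh2-Y726D replicate 1 (adjusted P = 0.0823).

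**Figure D4:**
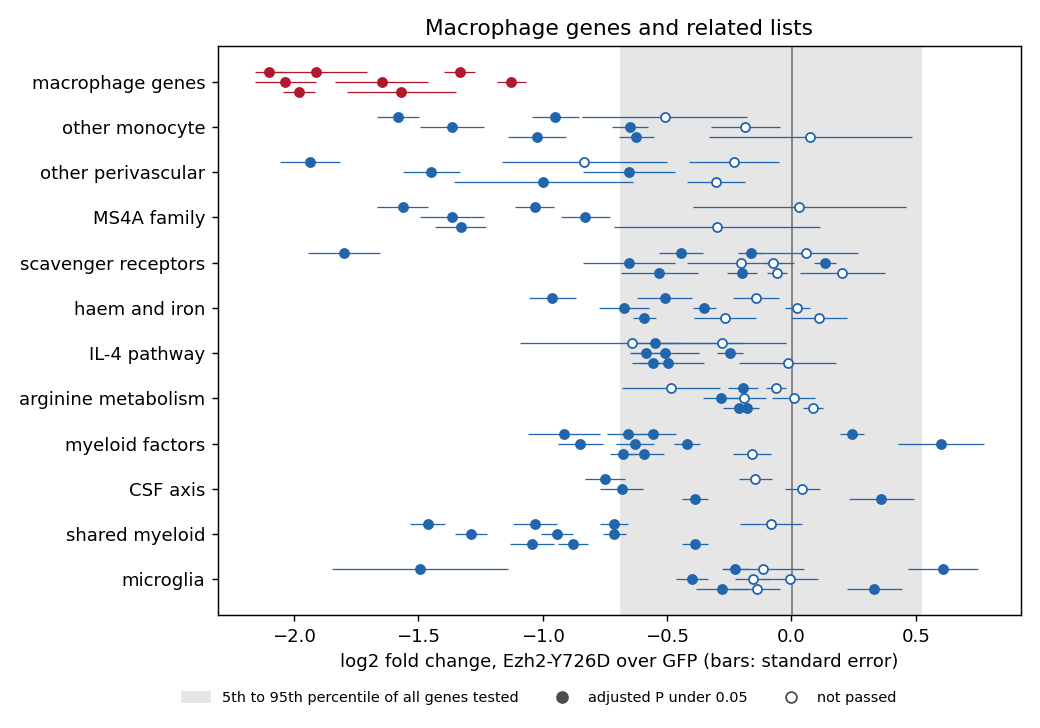
Log2 fold change of each tested gene, Ezh2-Y726D over GFP, for 8 macrophage genes and for the related lists, with SEs as bars, filled points for an adjusted P under 0.05 and a grey band from the 5th to the 95th percentile of all genes tested (-0.69 to 0.52). The macrophage genes shown lie from -2.10 to -1.13, and the microglia list from -1.49 (Fcrls) to 0.61 (Sall1). The macrophage genes were chosen on this contrast, so nothing is read from their filled points.

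Relatives in the same protein families were compared where every library held a count. Adgre4 and Adgre5, which like Adgre1 encode adhesion receptors of leukocytes, fell by 2.07 and 1.06 (adjusted P = 5.73e-05 and 4.27e-11 from edgeR), although Adgre4 held only 6 to 32 counts and the exons of Adgre5 overlap other genes over 24.6% of their bases. Prf1, the perforin of killer lymphocytes, fell by 0.93, and Chil1, a chitinase-like gene, by 0.29. Tgm1 and Cd163l1 had log2 fold changes of -0.51 and -0.96 and did not pass. In edgeR Tgm1 passed without GFP replicate 2 (adjusted P = 0.0437) and without Ezh2-Y726D replicate 1 (adjusted P = 0.0249). Without GFP replicate 1 its log2 fold change shrank to -0.20 (adjusted P = 0.740 from edgeR). Lyz1 was too low to be tested.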

How the data were processed

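RNA was measured in 6 libraries of CD90.2-sorted retinal cells, 3 per group, prepared as stranded total RNA. The authors deposited raw read counts per gene without normalization. The submitters' processing notes name STAR 2.7.0d and GRCm38; the counting tool, annotation and strand setting are not given in the sources used here, so genes that overlap or have copies are uncertain. Symbols were found for 32325 of 32371 identifiers. Coordinates, exon lengths, overlaps and shared 50-base stretches came from GENCODE vM21 on GRCm38.

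Counts were filtered with edgeR's filterByExpr (10 counts, total of 15), scaled by TMM and tested with the quasi-likelihood test of edgeR 4.0.16 in R 4.3.3, Benjamini-Hochberg adjusted over 18138 genes. A gene passed at an adjusted P under 0.05. Standard errors are the log2 fold change over the square root of F. The procedure was tested on simulated data. An exact permutation test of 1 gene with 3 libraries a group has a smallest P of 0.1. No library was a copy of another (chi-square per degree of freedom at least 1.49). Floors of 3 counts cover counting error only.

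The macrophage genes, the gene lists and the tests were chosen with earlier results of these data known. Named were the macrophage genes, up to 3 falls and 2 rises per list among genes that passed without overlap, family relatives with a count in every library, and Csf1r, Spi1 and Ezh2. Folr2, Colec12, Lyve1, Ccr2, Pf4, Cbr2, Retnla, Ccl24, Itgam, P2ry12, Sall1, S100a4, Itga4, Ifitm6, Kdr, Flt1, Pecam1, Esam, Fcrls, Isl1 and the neutrophil genes were named after their values were seen. 1 gene of the list and 2 genes of the related lists are not reported here. The alternatives were RLE size factors, library totals with and without CT010467.1, DESeq2 1.42.0, no filter, 10 counts in every library, a replicate block, a fold change over 1.5 and leaving out each library. GFP replicate 1 as the only GFP library was added after the data were seen.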

Additional observations from a re-analysis of the deposited data

How the results depend on the processing

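All 9 detected macrophage genes kept a negative log2 fold change under every alternative run, and all 9 passed under each except library totals. Because the genes were chosen on this contrast, nothing is read from the number that passed in any alternative. The 8 described had log2 fold changes from -2.22 (Ms4a7) to -1.04 (Mpeg1) outside library totals. Library totals, which let the rRNA of GFP replicates 2 and 3 enter the scaling, moved the median of all genes to 0.49. They left 19 genes lower and 46 higher, 3 of the macrophage genes lower with a median of -1.41, and 0 lower in each of the 9 other lists. They turned the log2 fold changes of Slc7a1 (0.22), Slc7a2 (0.30), Odc1 (0.33), Ly75 (0.0615), Csf1r (0.12), Mrc2 (0.27), Ms4a4a (0.0636) and Chil1 (0.22) positive, each below that shifted median. Without CT010467.1 in those totals, all 9 macrophage genes were lower again, and the median of all genes was -0.02.

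DESeq2 left 2 perivascular genes and 3 scavenger receptors lower. With a fold change over 1.5 as a further threshold, 998 genes were lower and 457 higher, and 0 genes of the interleukin-4 pathway, 0 of arginine metabolism, 2 scavenger receptors and 3 haem and iron genes were lower. With 1 library left out, 2 to 6 perivascular genes and 3 to 6 scavenger receptors were lower. The log2 fold change of Stab2 became -0.20 without GFP replicate 1 and -0.03 without Ezh2-Y726D replicate 2, and reached 0.167 without Ezh2-Y726D replicate 3. That of Mrc2 ran from -0.35 without GFP replicate 2 to 0.0069 without GFP replicate 1. With GFP replicate 1 as the only GFP library, where it is assumed to vary like the Ezh2-Y726D libraries, all 9 macrophage genes were lower with a median of -1.85, and Ms4a4a was at 0.0310. The causes of these changes were not tested.

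The replicate numbers did not pair the libraries (correlations of same-numbered deviations 0.136, 0.051 and 0.039). With the replicate block, 2547 genes were lower and 2675 higher, 9 of the macrophage genes among the former, and each of the 9 lists kept its number of genes lower. Mrc1, Chil3 and F13a1 held under 50 counts in at least 1 library of each group, which limits their precision.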
